A study of Mus musculus with 4 samples.

Results

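The integrated stress response genes Atf4, Atf5, Asns, Chac1, Trib3, Ddit3, Sesn2 and Cebpb were read on 4 expression arrays of mouse intestinal organoids. Members were all probe sets annotated with exactly 1 of these 8 gene symbols. They came to 15 of the 45101 probe sets on each array, and the 8 genes to 8 of the 18193 that a probe set names; 6 of the genes have more than 1 probe set. Organoids are epithelial cultures grown in Matrigel from intestinal crypts. All 4 cultures carried floxed Apc alleles (Apc fl/fl), and 4-hydroxytamoxifen (4OHT) was given for 24 h to recombine them. The Apc protein helps to hold beta-catenin, the effector of Wnt signalling, at a low level. The 4 groups were untreated organoids at day 4, 4OHT-treated organoids at day 4, untreated organoids at day 6 and 4OHT-treated organoids at day 6, with 1 array each. Per the labels, the 4OHT organoids were Apc-deficient. The sources used here do not give the age of the animals, the recombinase or the number of cultures behind an array. No array came from 4OHT-treated organoids without floxed Apc.

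In the integrated stress response, kinases that sense amino acid shortage, unfolded protein in the endoplasmic reticulum (ER), heme loss or double-stranded RNA phosphorylate the translation factor eIF2. General translation then slows, while the mRNA of the transcription factor ATF4 is translated more, largely through upstream open reading frames, so the level of Atf4 mRNA need not follow the activity of the protein. ATF4, alone or with C/EBP proteins, induces genes for amino acid supply and for the response to lasting stress. In the intestinal crypt, secretory cells such as Paneth and goblet cells carry a high load of ER protein folding.

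Values below are probe-set intensities as deposited. Differences are on the log2(intensity + 16) scale, where 1 is a 2-fold difference, and they understate the change of dim probe sets. Folds are likewise ratios of intensity + 16, so they are smaller than the ratios of the printed intensities. A probe set was tested when 1 or more of its 4 values were at least 20.9, the median intensity over all arrays. All 15 member probe sets passed this filter, as did 27841 of all probe sets. Because each group had 1 array, a difference within a day or within an arm has no test. The one test used was an additive limma model of 4OHT and day across the 4 arrays, adjusted by Benjamini-Hochberg over all 27841 probe sets. "Rose" and "fell" below mean an adjusted p under 0.05 in that test. Its error combines a probe set's disagreement between both days (or both arms) with a prior shared by all probe sets. The prior weighs more (1 residual and 10.6 prior degrees of freedom), so a ± value is mostly not the gene's own disagreement. Nor does the error measure the spread between replicate cultures.

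The arrays differed in ways that touch every comparison between the days, and also those between 4OHT and untreated. The median intensity was 22.0 and 21.9 at day 4 and 19.3 and 19.5 at day 6 (untreated and 4OHT). The spiked hybridization controls averaged 12.33 (untreated) and 11.97 (4OHT) at day 4 against 10.07 and 10.90 at day 6 on the log2 scale, and the poly-A controls 11.62 and 11.17 against 8.73 and 10.11. The 3' minus 5' difference of the Actb control probe sets was 2.96 and 3.91 at day 4 and 1.72 and 2.34 at day 6. It was higher with 4OHT on both days, by 0.94 and 0.62, as was that of Gapdh, by 0.87 and 0.56. With 4OHT the hybridization controls differed by -0.35 at day 4 and 0.83 at day 6. No source used here says how the day 4 and day 6 arrays were scaled. Epithelial markers were bright (summed intensity of 9 genes 15440 to 27970), those of fibroblasts and muscle dim (8 genes, 124 to 224), as were those of endothelium (4 genes, 44.1 to 87.0). Immune markers summed to 593 to 2194 over 7 genes, a sum that includes Lyz2, whose sequence resembles that of Lyz1 of Paneth cells. Among the lineage markers, enterocyte genes summed to 3588 (untreated) and 1350 (4OHT) at day 4 and to 11610 and 5683 at day 6, and Paneth cell genes to 28960 and 46530 at day 4 and to 12500 and 43260 at day 6. With 4OHT, 6 of 9 enterocyte genes fell and 3 of 5 Paneth cell genes rose, where 0.454% of all genes rose and 1.33% fell. Goblet cell genes summed to 13090 and 19510 at day 4 and to 7134 and 13070 at day 6, and 2 of 7 rose and 1 fell with 4OHT. In such bulk samples, fewer cells of a type and less RNA per cell cannot be told apart. The part of these shifts in the results below was not tested.

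**Figure D1:**
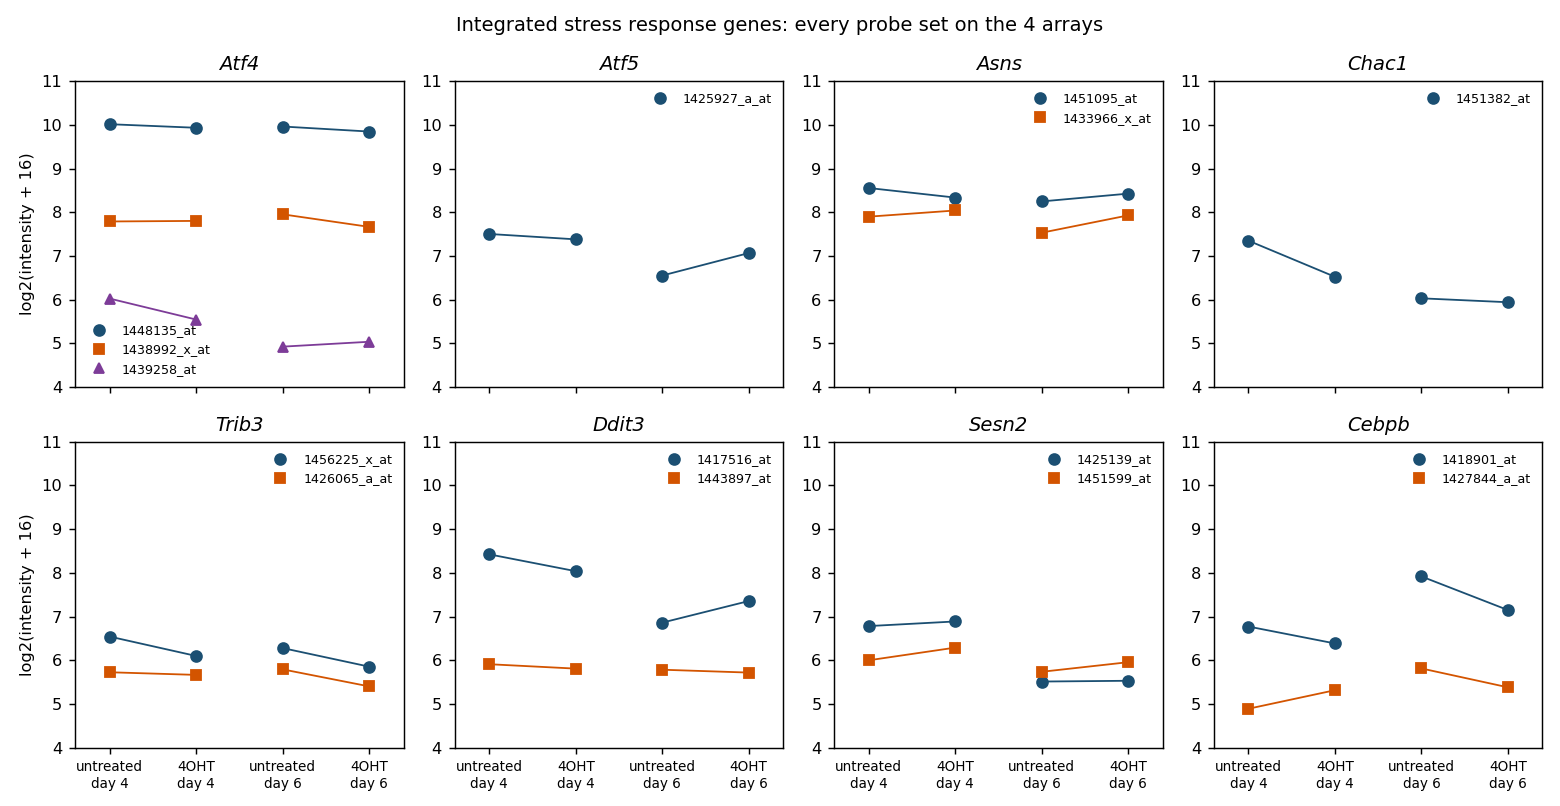
Level of every member probe set, log2(intensity + 16) on the y axis, on the 4 arrays named on the x axis. Points are single arrays and lines join the arrays of a day. The upper Ddit3, Sesn2 and Chac1 points sit lower at day 6, the upper Cebpb points sit higher, and the brightest Atf4 points differ by 0.17 at most.

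Comparing 4OHT-treated with untreated organoids asked what recombination of Apc changed. None of the 15 member probe sets rose or fell, against 1.16% of all tested probe sets (323 of 27841). At an unadjusted p under 0.05, 1 member probe set stood, 1418901_at of Cebpb, against 11.5% of all probe sets. None reached 2-fold in either direction on either day, against 1.63% of all probe sets at day 4 and 2.91% at day 6. The median member difference was -0.10 at day 4 and -0.07 at day 6, where the medians over all tested probe sets were 0.04 and -0.01. On 6 member probe sets the difference had opposite signs on the days, as on 43.6% of all. A missed threshold with 1 array per group does not show that the genes were equal.

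The transcription factor gene at the head of the response was nearly level with 4OHT on its brightest probe set. Its difference between the days depended on the scaling, as given below. The brightest Atf4 probe set, 1448135_at, gave 1017 (untreated) and 960.4 (4OHT) at day 4 and 980.1 and 904 at day 6. Both 4OHT values lay under the untreated value of their day, by 0.08 and 0.12, although at day 6 it lay 0.06 above after quantile normalization, and the fitted difference was -0.10 ± 0.20 (SE, limma adjusted p = 0.92). The second, 1438992_x_at, a kind of probe set that can bind other transcripts, ran from 187 to 232. The third and dimmest, 1439258_at, gave 49.2 and 30.7 at day 4 and 14.4 and 16.9 at day 6, so that its 4OHT value was below the untreated one at day 4 only.

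Atf5 encodes a related factor whose mRNA is likewise under translational control. Its only probe set, 1425927_a_at, gave 165 and 151 at day 4 and 77.9 and 118 at day 6. The 4OHT value was the lower one at day 4 (-0.12) and the higher one at day 6 (0.51), and the fit gave 0.20 ± 0.22 (adjusted p = 0.83).

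Ddit3 encodes CHOP, a factor that acts with ATF4 in lasting stress and promotes cell death. Its brighter probe set, 1417516_at, gave 327 and 247 at day 4 and 100.2 and 148 at day 6. It was 1.31-fold lower with 4OHT at day 4 and 1.41-fold higher at day 6, so that the fitted difference was 0.05 ± 0.24 (adjusted p = 0.97). The other probe set, 1443897_at, stayed between 36.6 and 44.1 on all arrays.

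Cebpb, which encodes a C/EBP partner that forms dimers with ATF4 and CHOP, had the largest fitted 4OHT difference of the members. Probe set 1418901_at gave 93.2 and 67.5 at day 4 and 226 and 126 at day 6. The 4OHT value was below the untreated one on both days, by 0.39 and 0.77, or 1.31-fold and 1.70-fold. The fit gave -0.58 ± 0.21, which did not pass over all probe sets (adjusted p = 0.28). With single arrays left out and no day term in the fit, it ran from -1.15 (without untreated day 4) to -0.0047 (without untreated day 6). Its dimmer probe set 1427844_a_at did not share this, with 13.7 and 23.8 at day 4 and 40.2 and 25.7 at day 6.

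Target genes carry the C/EBP-ATF response element, the site that ATF4 binds together with C/EBP proteins, and its core stood in the promoter windows of Asns and Chac1. The stretches below are shown because they hold that core before the gene's start. They come from RefSeq's promoter table (GRCm38.p6) and are written 5′ to 3′ on the gene's strand, with the element in capitals. The Asns stretch lies at chr6:7693210-7693262 on the minus strand and the Chac1 stretch at chr2:119351019-119351086 on the plus strand.
Asns: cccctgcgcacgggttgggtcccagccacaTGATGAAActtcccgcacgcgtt
Chac1: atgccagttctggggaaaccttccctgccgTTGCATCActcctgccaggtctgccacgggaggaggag

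The element begins 23 bases before the Asns start, and 193 bases before the Chac1 start in the reverse orientation. The search used TGATGNAA on both strands, over windows from 250 bases before to 50 bases after each start, and no match overlapped another. Of 9 windows for the 8 genes, 3 held it (Asns, Chac1 and Trib3, the last 14 bases past its start), as did 3.97% of 32851 windows of all genes. The windows of Ddit3, Atf5, Sesn2, Atf4 and Cebpb did not hold these letters.

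Of the target genes, Chac1 encodes an enzyme that degrades glutathione. Its probe set 1451382_at gave 147 and 76.0 at day 4 and 49.4 and 45.5 at day 6. It was 1.77-fold lower with 4OHT at day 4 and 1.06-fold lower at day 6 (fit -0.46 ± 0.23, adjusted p = 0.49). The day 4 difference, -0.83, was the widest single 4OHT difference of any member.

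Trib3 encodes a pseudokinase that feeds back on ATF4 and binds the kinase AKT. Probe set 1456225_x_at gave 77.1 and 52.5 at day 4 and 61.6 and 41.8 at day 6, which is 1.36-fold and 1.34-fold lower with 4OHT. The days nearly matched, at -0.44 and -0.42, and the fit did not pass (-0.43 ± 0.20, adjusted p = 0.44). Its dimmer probe set, 1426065_a_at, was lower by 0.06 and 0.39.

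Asns encodes asparagine synthetase, a classical target of ATF4. Probe set 1451095_at gave 359.8 and 307 at day 4 and 288 and 328 at day 6, a 4OHT difference of -0.22 and then 0.18. The _x_at probe set 1433966_x_at gave 223 and 247 at day 4 and 169 and 228 at day 6, higher with 4OHT by 0.14 and 0.40.

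Sesn2 encodes sestrin 2, an inhibitor of mTORC1 that senses leucine and is also a p53 target. Probe set 1425139_at gave 94.0 and 102 at day 4 and 29.7 and 30.2 at day 6, and its 4OHT differences were 0.11 and 0.02. The other, 1451599_at, gave 48.0 and 62.2 at day 4 and 37.3 and 46.1 at day 6. Both probe sets were higher with 4OHT on both days, the second by 0.29 and 0.22, and neither passed (adjusted p = 0.96 and 0.72).

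**Figure D2:**
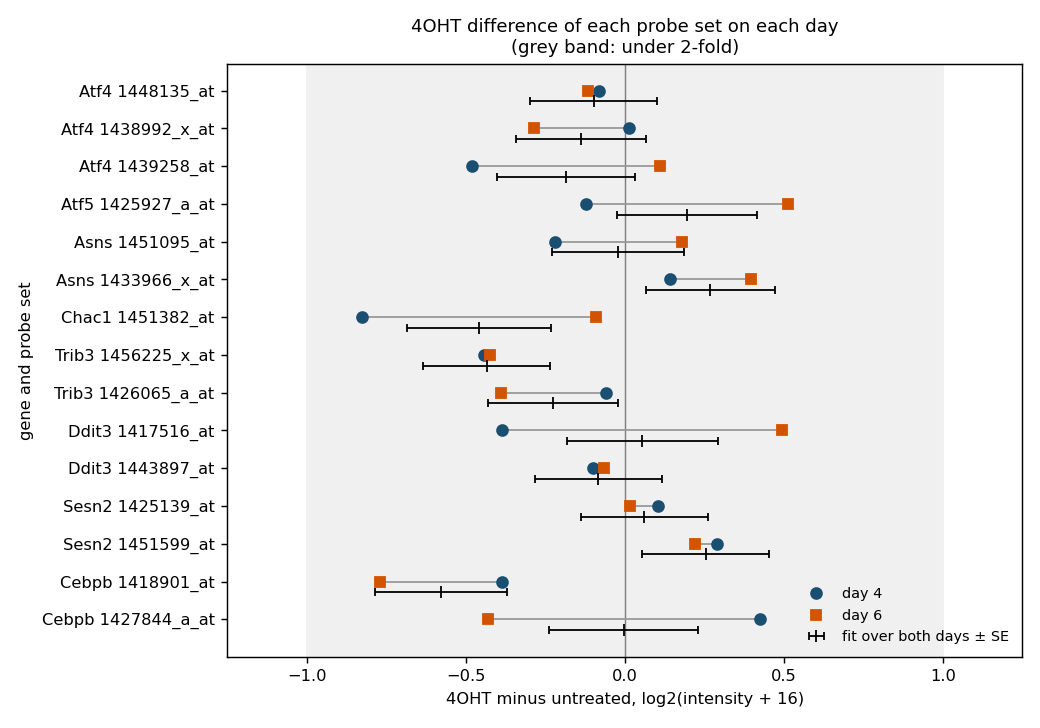
4OHT minus untreated, log2(intensity + 16) on the x axis, for each member probe set (y axis) at day 4 (circles) and day 6 (squares), with the fitted difference over both days ± SE in black below. All 30 points lie inside the grey band that marks differences under 2-fold, and 6 probe sets have points on both sides of 0.

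Across the days the members separated. In the fit over both arms, 5 member probe sets fell at day 6, against 16.4% of all probe sets, and 1 rose, against 33.3%. Those that fell belong to Sesn2, Ddit3, Chac1, Atf4 and Atf5, and the one that rose to Cebpb. Asns and Trib3 had no probe set that passed. At 2-fold, 4 member probe sets, Atf4 1439258_at among them, were lower and 1 higher in untreated organoids, against 4.46% and 22% of all. With 4OHT 1 was lower and none higher, against 2.37% and 15.7%. Both arms were lower at day 6 on 10 of the 15 (39.1% of all), by at least 2-fold on 1, Sesn2 1425139_at (1.51%). On 11 the difference was smaller in size with 4OHT, as on 62.3% of all. The median over the members was -0.26 in untreated and -0.24 in 4OHT organoids, where all tested probe sets had 0.15 and 0.05. It was -0.73 and -0.53 after quantile normalization (all probe sets -0.05 and -0.08) and -0.12 and -0.11 after median centring (0.29 and 0.18). Since 49.7% of all probe sets passed this test in either direction and the scaling between the days is unknown, a passed test here is weak evidence for any single gene. Left out in turn, with no 4OHT term in the fit, either day 4 array took away every call, of members and of all probe sets.

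Sesn2 had the smallest adjusted p of the members. Its probe set 1425139_at was 2.41-fold lower at day 6 in untreated and 2.56-fold lower in 4OHT organoids, and the day 6 values lay under both day 4 values by more than 1.2 on the log2 scale. The fit gave -1.31 ± 0.20 (adjusted p = 0.00031). The second probe set pointed the same way in both arms, by -0.26 and -0.33, without passing (adjusted p = 0.22).

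Ddit3 1417516_at was 2.95-fold lower at day 6 in untreated and 1.61-fold lower in 4OHT organoids (-1.12 ± 0.24, adjusted p = 0.0025). The drop was thus smaller by 0.88 with 4OHT, a difference that no test covers. The second Ddit3 probe set differed by -0.13 and -0.09 and did not pass. Chac1 was 2.49-fold lower in untreated and lower by 0.58 on the log2 scale in 4OHT organoids (-0.95 ± 0.23, adjusted p = 0.0051).

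Atf5 was 1.93-fold and 1.24-fold lower (-0.63 ± 0.22, adjusted p = 0.033), the weakest call, which was lost after median centring of the arrays (adjusted p = 0.089). Of the Atf4 probe sets, the dimmest fell (-0.80 ± 0.22, adjusted p = 0.010), while the brightest differed by -0.07 ± 0.20 (adjusted p = 0.78). The dimmest, 1439258_at, met the level filter of 20.9 only through its day 4 values (49.2 and 30.7), with 14.4 and 16.9 at day 6. The filter thus favoured a fall, and its call is not independent of that choice. Cebpb 1418901_at rose, 2.21-fold in untreated and 1.70-fold in 4OHT organoids (0.95 ± 0.21, adjusted p = 0.0029). That call was lost after quantile normalization (0.44 ± 0.21, adjusted p = 0.10).

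Asns and Trib3 stayed within 1.29-fold between the days in both arms on every probe set, and none passed. After quantile normalization, however, both Asns probe sets fell (-0.68 and -0.81), as did Trib3 1456225_x_at (-0.58) and Sesn2 1451599_at (-0.54). So did the brightest Atf4 probe set (-0.63) and Atf4 1438992_x_at (-0.57). That setting brought the members to 11 that fell and none that rose, where 21.3% of all probe sets fell and 23.1% rose. Median centring brought them to 4 that fell and 2 that rose, where 10.7% of all fell and 38.9% rose. Ddit3 1417516_at, Sesn2 1425139_at, Chac1 and Atf4 1439258_at fell under the values as deposited and under both other scalings. For Atf4 1439258_at the filter limit given above applies to each. In the order named, the day differences were -1.66, -1.61, -1.33 and -0.83 after quantile normalization and -0.95, -1.18, -0.80 and -0.70 after median centring.

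**Figure D3:**
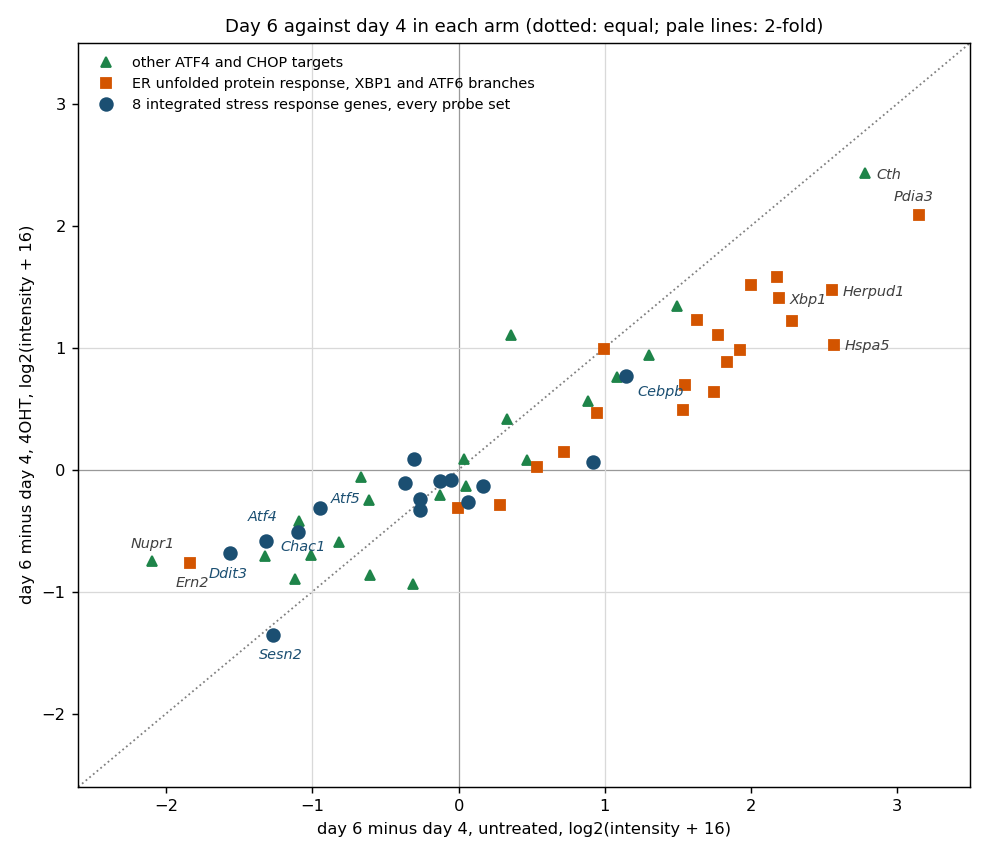
Day 6 minus day 4 in untreated (x axis) and 4OHT organoids (y axis), log2(intensity + 16), for the member probe sets (circles), other ATF4 and CHOP targets (triangles) and ER unfolded protein response genes (squares). Each point is 1 probe set, gene names mark the members past the day test and a few genes of the lists, and Sesn2, Ddit3 and Chac1 lie in the lower left while most squares lie in the upper right.

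Some of the members that fell over the days had the array order of the spiked controls. The hybridization controls were highest in the untreated array of day 4, followed by 4OHT at day 4, 4OHT at day 6 and untreated at day 6. Ddit3 1417516_at, Atf5 and Atf4 1439258_at had this same order, 3 of 15 member probe sets, as had 10.9% of all tested probe sets. For Atf4 1439258_at, the level filter favoured day 4 values above those of day 6. From day 4 to day 6 the hybridization controls were lower by 2.26 in the untreated and by 1.07 in the 4OHT arm, where Ddit3 was lower by 1.56 and 0.68. Chac1 and Sesn2 kept another order, since Chac1 was lowest in 4OHT at day 6 and Sesn2 highest in 4OHT at day 4. These orders rest on small gaps between single arrays, -0.09 for Chac1 at day 6 and 0.11 for Sesn2 1425139_at at day 4. Both were lower at day 6 in both arms, as the controls were. The part of spike level and array scaling in these drops was not tested.

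**Figure D4:**
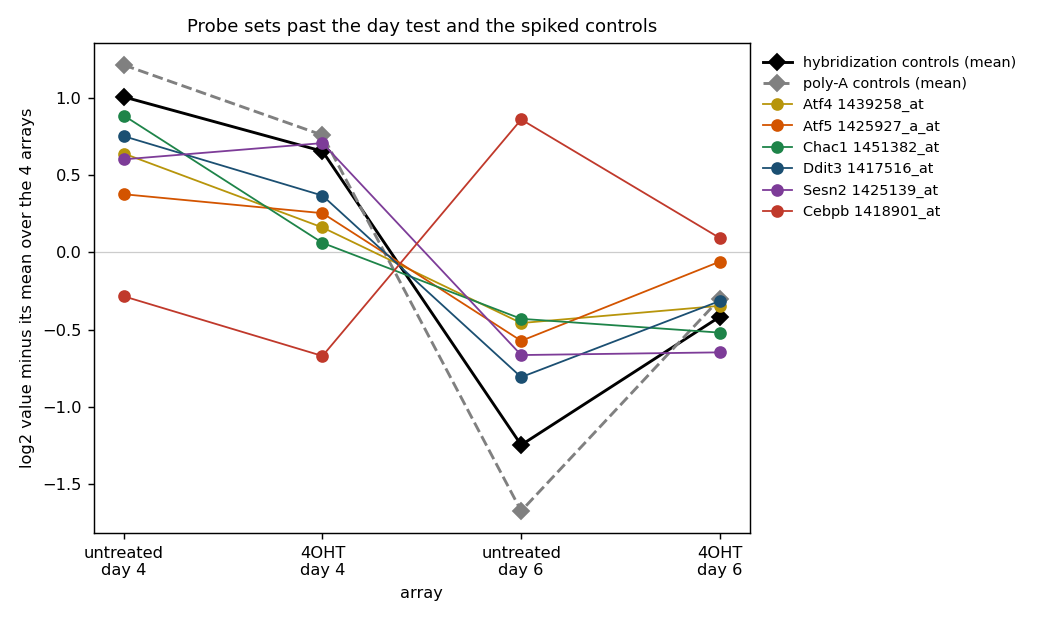
Log2 values on the 4 arrays (x axis), each series centred on its own mean (y axis), for the member probe sets past the day test and for the means of the hybridization and poly-A controls. Members are log2(intensity + 16) and controls log2 intensity. Ddit3 and Atf5 follow the order of the hybridization controls, while Cebpb is highest where they are lowest.

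The named genes nearest to Ddit3, the member with the widest range (1.56), were Lonp2, Clip2, Igfbp7, Grin3b and Snord104. Likeness was the Euclidean distance between centred log2 values over the 4 arrays, which ran from 0.071 to 0.11. Lonp2, the nearest, encodes a peroxisomal protease and gave 397 and 295 at day 4 and 115.5 and 180 at day 6, on an _x_at probe set.

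Upstream of the members, none of 15 tested genes for eIF2, its kinases and their regulators rose or fell with 4OHT (all genes 0.454% rose and 1.33% fell). Largest in the difference held on both days were Eif2b4, a subunit of the eIF2 exchange factor (0.61 ± 0.20, adjusted p = 0.24), and Gcn1, an activator of the kinase GCN2 (0.54 ± 0.20, adjusted p = 0.30). Over the days, 6 of these genes rose and 3 fell, where 35.1% of all genes rose and 18.2% fell. Picked after their values were seen, Ppp1r15b, which encodes the constitutive partner of the eIF2 phosphatase, rose by 1.95 ± 0.21 (adjusted p = 4.1e-05), and Eif2ak3, the gene of the ER-stress kinase PERK, by 1.33 ± 0.20 (adjusted p = 0.00031). The stress-induced phosphatase partner Ppp1r15a, itself an ATF4 and CHOP target, differed by -0.23 ± 0.20 (adjusted p = 0.34).

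Other targets of ATF4 and CHOP moved both ways with 4OHT. Of 21 tested, 1 rose and 2 fell. Nupr1, a stress-induced chromatin protein gene, gave 692 and 1392 at day 4 and 149.7 and 823 at day 6, and rose by 1.67 ± 0.28 (adjusted p = 0.015). Cth, the cystathionine gamma-lyase gene, gave 170.2 and 50.7 at day 4 and 1262 and 343 at day 6, and fell by 1.66 ± 0.21 (adjusted p = 0.0032). Ero1a, an ER oxidase gene, gave 279.6 and 115 at day 4 and 254 and 97.2 at day 6, and fell by 1.22 ± 0.20 (adjusted p = 0.013). All 3 had both 4OHT values on the same side of the untreated ones. They were named for passing this test, which favours such sameness, so it is not separate evidence. Enterocyte and Paneth marker sums moved on the same arrays as given above. Over the days 6 rose and 8 fell (35.1% and 18.2% of all genes). After quantile normalization 2 rose and 12 fell, where 23.1% and 21.3% of all probe sets did. After median centring 6 rose and 7 fell, where 38.9% and 10.7% of all probe sets did.

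None of 16 aminoacyl-tRNA synthetase genes, many of them ATF4 targets, passed with 4OHT, the largest in the difference held on both days being Wars (0.74 ± 0.21, adjusted p = 0.15) and Aars (0.54 ± 0.20, adjusted p = 0.30). Their median difference was 0.32 at day 4 and 0.15 at day 6, with 13 and 9 of 16 above 0, where 7486 and 6478 of 13205 genes were. After quantile normalization the medians were 0.21 and 0.27, with 13 and 15 of 16 above 0. Over the days, 6 rose and 6 fell (35.1% and 18.2% of all genes), or 2 and 8 after quantile normalization and 7 and 3 after median centring.

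The XBP1 and ATF6 branches of the ER unfolded protein response, which run beside the ATF4 branch, were mostly higher at day 6. Of 21 genes, 16 rose and 1 fell at day 6, where 35.1% of all genes rose and 18.2% fell. After quantile normalization 12 rose and 3 fell, where 23.1% and 21.3% of all probe sets did. The median as deposited was 1.74 in untreated and 0.98 in 4OHT organoids, where all genes had 0.17 and 0.04. Hspa5, the gene of the ER chaperone BiP, gave 456 and 652 at day 4 and 2772 and 1342 at day 6 (1.79 ± 0.30, adjusted p = 0.00058). Xbp1 rose by 1.80 ± 0.23 (adjusted p = 0.00010), and Ern2, a sensor gene of gut secretory cells, was the one that fell, by 1.30 ± 0.25 (adjusted p = 0.0015). These 3 were picked after their values were seen. Ddit3, which this response can also induce, thus fell on probe set 1417516_at on the same arrays on which Hspa5 and Xbp1 rose. Its other probe set did not pass, and 1417516_at had the array order of the hybridization controls.

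With 4OHT, none of the 21 ER genes passed. Their median was 0.21 at day 4 and -0.57 at day 6. At day 4, 16 of 21 were above 0, as were 7486 of 13205 genes. At day 6, 18 were below 0, as were 6680 of 13205 genes. Hspa5 was 0.50 higher with 4OHT at day 4 and 1.04 lower at day 6. Ddit3 1417516_at ran the other way on both days, -0.39 and 0.49, while Ddit3 1443897_at differed by -0.10 and -0.07. The hybridization controls differed by -0.35 and 0.83, and their part was not tested. Pdia4, a disulfide isomerase gene, was lower by 0.85 and 0.86 (-0.86 ± 0.20, adjusted p = 0.070), and Hsp90b1, the gene of the ER chaperone GRP94, by 0.19 and 0.59 (adjusted p = 0.53). Ern2, named after its values were seen, was higher by 0.16 and 1.23 (0.69 ± 0.25, adjusted p = 0.29).

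Of 12 mitochondrial protein quality control genes, which are linked to Atf5 in mammals, none passed with 4OHT. Clpx, a protease subunit gene, was lower by 0.96 and 0.80 (-0.88 ± 0.20, adjusted p = 0.064), and Dele1, whose product relays mitochondrial stress to an eIF2 kinase, differed by 0.29 ± 0.20 (adjusted p = 0.66). After quantile normalization and after median centring, 1 of the 12 fell with 4OHT. Over the days 9 rose and 2 fell (35.1% and 18.2% of all genes), or 5 and 3 after quantile normalization.

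Paralogues of the members gave no call with 4OHT among 8 tested. Cebpa, a C/EBP gene of differentiating enterocytes, was lower by 0.84 and 1.02 and just missed the threshold (-0.93 ± 0.20, adjusted p = 0.052), passing after quantile normalization and after median centring. Sesn3 was higher by 0.81 and 0.70 (0.75 ± 0.20, adjusted p = 0.12). Over the days 4 rose and 1 fell, or 3 and 1 after quantile normalization and 6 and 0 after median centring, where 35.1% of all genes rose and 18.2% fell with no rescaling.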

How the data were processed

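Per the labels' protocols, 100 ng of total RNA was labelled with a 3' in vitro transcription kit, so probe sets read mostly transcript 3' ends. The deposited values are linear intensities, 1 per probe set and array, from 2.73 to 23910.3; their background correction, normalization and summarisation are not given in the sources used here. Of 45101 probe sets, 64 controls were left out, and 34945 of the others carry 1 gene symbol in the platform's annotation. Intensities were moved to log2(intensity + 16) and fitted with limma 3.58.1 (R 4.3.3; lmFit, eBayes; 1 residual and 10.6 prior degrees of freedom, prior SD 0.208) over all probe sets past the level filter. The fit was also run on simulated data whose errors were drawn from its own prior. Those data held no day effect and no scaling difference between arrays, so the run could not test for either. Each gene of the other lists was read by its brightest probe set. The 6 lists hold 100 genes, of which 94 were measured, 15 of them under an older symbol, and the rest are not analysed here. Of each list, up to 4 genes past the 4OHT test were named or, where fewer than 2 passed, the 2 with the largest difference held on both days (the smaller of the days' differences, where both had the same sign); other names are marked. The members and lists were chosen with earlier results of these data known. Nothing says that the arrays came from separate cultures, so p-values may measure technical spread. Other software was Python 3.11.15 (pandas 2.3.3, numpy 2.4.6, matplotlib 3.10.9). Alternatives covered the level filter, pseudocount, scaling, probe-set choice, fold threshold, model terms and single arrays left out.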

Additional observations from a re-analysis of the deposited data

Results flagged for a closer look

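On 6 member probe sets the 4OHT difference had opposite signs on the days, as had 43.6% of all tested probe sets. Each sign rests on 1 array against 1 and the difference between the days was not tested. Ddit3 1417516_at differed by -0.39 at day 4 and 0.49 at day 6, and Atf5 by -0.12 and 0.51. Atf4 1439258_at differed by -0.48 and 0.11, and Atf4 1438992_x_at by 0.01 and -0.29. Asns 1451095_at differed by -0.22 and 0.18, and Cebpb 1427844_a_at by 0.42 and -0.43. The hybridization controls differed by -0.35 and 0.83 and the poly-A controls by -0.45 and 1.38. Ddit3 1417516_at, Atf5, Atf4 1439258_at and Asns 1451095_at had these signs, Atf4 1438992_x_at and Cebpb 1427844_a_at the reverse. The part of the spike level was not tested.

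On 3 member probe sets the difference between the days had opposite signs in the arms, also untested. Atf4 1438992_x_at differed by 0.16 in untreated and -0.14 in 4OHT organoids, Asns 1451095_at by -0.31 and 0.09, and Trib3 1426065_a_at by 0.07 and -0.26.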

How the results depend on the processing

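No member probe set passed the 4OHT test under any of the 15 alternatives run, and none reached 2-fold with 4OHT, while at 1.5-fold 1 was lower at day 4 and 1 at day 6. Under the alternatives in which no probe set of any gene passed, given next, no member could pass. Those alternatives therefore say nothing about the members. The number of all probe sets passing that test (323) was 88 with the filter on the mean, 0 with no level filter, a pseudocount of 1, a pseudocount of 64 or no day term, and 0 to 87 with single arrays left out.

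Of the day calls, 1 that rose and 5 that fell, median centring gave 2 that rose, quantile normalization 0 that rose and 11 that fell, no level filter 1 that fell, a pseudocount of 64 3 that fell, and no 4OHT term 0 that rose. Leaving out single arrays, with no 4OHT term, gave 0 to 1 and 0 to 4: without the 4OHT or the untreated array of day 4 none passed, without untreated day 6 only Sesn2 fell. Over all probe sets the count (13837, of which 67.0% rose, 52.0% after quantile normalization and 78.4% after median centring) was 0 to 9080 there, 7244 with 1 probe set per gene and 6754 with their mean. Scaling moved the median day difference of all probe sets from 0.10 to -0.10 (quantile) and 0.24 (median centring). Of all probe sets, 23.1% rose and 21.3% fell after quantile normalization, and 38.9% and 10.7% after median centring.

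In untreated organoids, the 1 member at least 2-fold higher at day 6 became 2 with median centring, a pseudocount of 1 or 1.5-fold, and 0 with a pseudocount of 64, quantile normalization or 3-fold. The 4 lower became 2 with the mean of probe sets, 1 with a pseudocount of 64 and 0 at 3-fold. With 4OHT, 1 was higher at 1.5-fold, and the 1 lower became 0 with the mean of probe sets, a pseudocount of 64 or 3-fold and 2 with quantile normalization or 1.5-fold.

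Small differences turned sign. For 4OHT, Asns 1451095_at gave 0.000612 and Cebpb 1427844_a_at 0.0632 after quantile normalization, the latter also 0.0652 with a pseudocount of 1. Between the days, Atf4 1448135_at gave 0.11, Asns 1451095_at 0.0682, Trib3 1426065_a_at 0.0276 and Ddit3 1443897_at 0.0239 after median centring, and Atf4 1438992_x_at -0.57 after quantile normalization. The causes were not tested.

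With single arrays left out, where only the tested term could be kept so that day and 4OHT mix, 4OHT values ran from -0.73 to 0.37 (Atf4 1439258_at), -0.28 to 0.67 (Atf5), -0.17 to 0.13 (Asns 1451095_at), -1.12 to 0.20 (Chac1), -0.73 to 0.84 (Ddit3 1417516_at), -0.62 to 0.74 (Sesn2 1425139_at), -1.15 to -0.0047 (Cebpb 1418901_at) and -0.46 to 0.46 (Cebpb 1427844_a_at), and day values from -0.13 to 0.16 (Atf4 1438992_x_at), -0.22 to 0.0016 (Asns 1451095_at) and -0.29 to 0.10 (Trib3 1426065_a_at). No paired analysis was possible because the labels give no replicate numbers; the test already compares the arms within each day through its day term. The number of arrays limits the precision.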
